A study of Mus musculus with 6 samples.

Results

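Among the nuclei sequenced from the mouse hypothalamus (nucSeq), 131 were taken as *Sim1*/*Otp* glutamatergic neurons, out of 39665 nuclei with at least 1000 unique molecular identifiers (UMIs, tags that count each captured RNA molecule once). They were chosen by their measured UMIs: a nucleus held 2 or more UMIs of *Sim1*, 1 or more of *Otp* and 1 or more of *Slc17a6*, none of *Foxb1* or *Caprin2*, and fewer than 2 of *Gad1*, *Gad2* and *Slc32a1* together. *Trh*, *Crh* and *Mc4r* were not used to choose them. The nuclei came from the hypothalami of male wild-type C57Bl/6 mice aged 6 to 8 weeks. One group of 12 mice was fed ad libitum and prepared as 2 cohorts of 6 on separate days, and the other group of 6 mice was fasted for 16 h. The hypothalami of each cohort were pooled, and each pool was sorted into 2 tubes, which gave 4 ad libitum fed libraries and 2 fasted libraries. The labels do not tell which fed libraries share a pool, and a single pool stands for the fasted state.

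The paraventricular nucleus of the hypothalamus (PVH) forms under the transcription factors SIM1 and OTP. Its small (parvocellular) neurons release thyrotropin-releasing hormone (*Trh*), which drives the thyroid axis, or corticotropin-releasing hormone (*Crh*), which drives the adrenal axis, and its large (magnocellular) neurons release oxytocin (*Oxt*) and vasopressin (*Avp*). Other glutamatergic PVH neurons carry the melanocortin-4 receptor (*Mc4r*), through which AgRP and POMC neurons of the arcuate nucleus act on food intake. *Slc17a6* encodes the vesicular glutamate transporter VGLUT2, *Caprin2* marks magnocellular neurons, and *Foxb1* marks mammillary neurons.

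*Trh* was the peptide gene with the lowest adjusted p against the other glutamatergic nuclei, and its precursor carries the hormone in several copies. Each copy is a Gln-His-Pro-Gly stretch between pairs of basic residues; the convertases cut at the basic residues and the remainder becomes the hormone. In the mouse *Trh* gene (GRCm38, chr6:92242061-92244650, minus strand, GENCODE vM21), a coding sequence of 768 bases holds 5 such in-frame units, all in exon 3 of 3. They are shown because every *Trh* UMI counted below comes from a transcript of this gene. The capitals mark the 12 bases that encode Gln-His-Pro-Gly, with 6 flanking bases on each side.
Unit 1 (chr6:92243088-92243111): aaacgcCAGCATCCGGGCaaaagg
Unit 2 (chr6:92242992-92243015): aaacgaCAGCACCCTGGCcgacgt
Unit 3 (chr6:92242857-92242880): aagcggCAGCACCCTGGCaggcga
Unit 4 (chr6:92242803-92242826): aagaggCAGCATCCAGGCcggagg
Unit 5 (chr6:92242710-92242733): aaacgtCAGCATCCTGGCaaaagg
Units 2 and 3 share their 12 bases, so the 5 units hold 4 distinct forms.

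The 6 libraries held 262084442 UMIs. Their totals were 39556605, 31757655, 59083864 and 59940795 UMIs for the fed libraries, numbered 1 to 4, and 36177621 and 35567902 UMIs for the fasted pair. The selected nuclei were deeper than the other glutamatergic nuclei in 5 of 6 libraries. Their median was 8871, 5101, 13015 and 11875 UMIs in fed libraries 1 to 4 and 10778.5 and 8992 in the fasted libraries. In the other glutamatergic nuclei the medians were 4991.5, 5209.5, 9360 and 9503 (fed) and 7468.5 and 7536 (fasted).

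Fed libraries 3 and 4 stood apart from the other 4 libraries. In the selected nuclei, the share of UMIs from ribosomal protein genes was 1.74% and 2.03% there, against 0.306% and 0.401% in fed libraries 1 and 2 and 0.176% and 0.192% in the fasted libraries. The other glutamatergic nuclei showed the same split, with 1.75% and 1.79% against 0.217% to 0.365%. Across 8087 genes with a mean above 20 CPM, which are not independent replicates, log2(CPM + 10) in the other glutamatergic nuclei correlated at r = 0.997 between fed libraries 1 and 2, 0.998 between fed libraries 3 and 4 and 0.997 between the fasted libraries, and at 0.816 to 0.828 across the fed couples. In the selected nuclei, over 8068 genes, the value was 0.959 between fed libraries 3 and 4, whereas fed library 1 correlated at 0.733 with fed library 2, at 0.703 with fed library 3 and at 0.745 with fasted library 2. This was not taken as a label of the pools, and all 3 pairings were kept. No selected nucleus shared its barcode with a selected nucleus of another library, and 7 of the 131 lay among the 1984 of 39665 nuclei called doublets, a share fixed at 5% of each library.

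The number of selected nuclei differed more between the fed libraries than between feeding states. Fed libraries 1 to 4 gave 13, 11, 47 and 48 nuclei, and fasted libraries 1 and 2 gave 4 and 8. As a share of all nuclei this was 0.154% (95% exact binomial interval 0.0821 to 0.263) and 0.166% (0.0827 to 0.296) in fed libraries 1 and 2, and 0.739% (0.543 to 0.982) and 0.753% (0.555 to 0.997) in fed libraries 3 and 4. The fasted libraries gave 0.0670% (0.0182 to 0.171) and 0.136% (0.0588 to 0.268), intervals that overlap those of fed libraries 1 and 2. These intervals cover counting error only.

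The mean share was 0.453% ± 0.338 (SD, n = 4 libraries) in the fed and 0.102% ± 0.0490 (SD, n = 2) in the fasted state. A 2-sided exact permutation test over the 3 pools gave p = 0.667 or 0.333, depending on how the fed libraries were paired, and 0.333 is the smallest p that 3 pools allow. Of the glutamatergic nuclei, the selected ones made up 1.26% ± 0.751 (SD, n = 4) in the fed and 0.502% ± 0.250 (SD, n = 2) in the fasted libraries. The rule itself depends on depth. When each nucleus was thinned to 2000 UMIs before the rule was applied, 0 of 37692 nuclei met it, so the shares cannot be compared at equal depth.

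**Figure D1:**
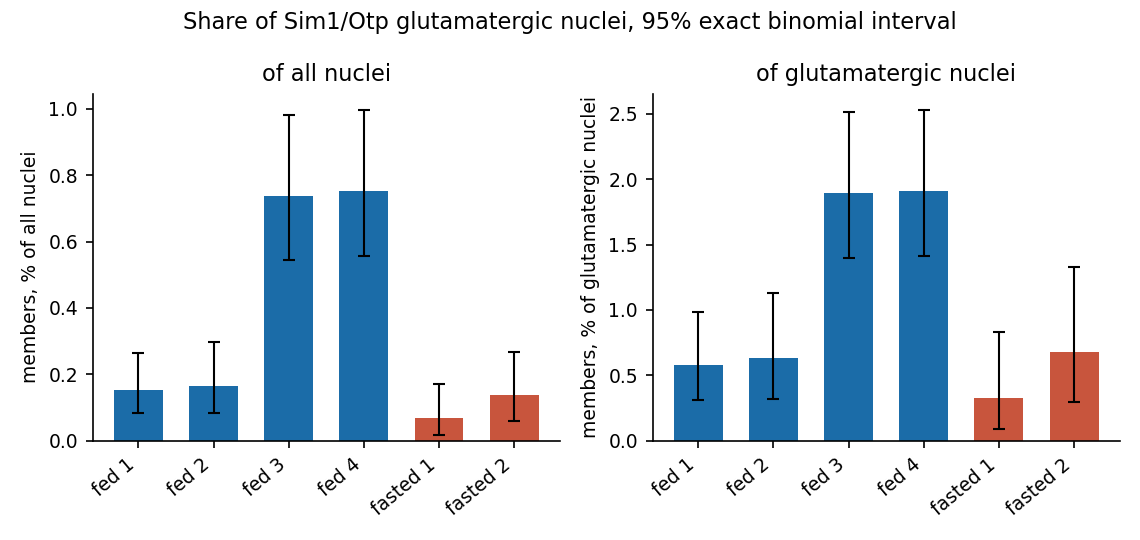
Share of *Sim1*/*Otp* glutamatergic nuclei among all nuclei (left) and among glutamatergic nuclei (right), in percent, by library, with 95% exact binomial intervals. Blue bars are ad libitum fed and red bars fasted libraries; fed libraries 3 and 4 stand at 0.739% and 0.753% of all nuclei, above the intervals of the other 4.

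Nuclei both just inside and just outside the threshold held *Trh*. Of 68 selected nuclei with exactly 2 *Sim1* UMIs, 42 held *Trh* and 26 held 10 or more *Trh* UMIs. Of 75 nuclei with 1 *Sim1* UMI that met the rest of the rule, 41 held *Trh* and 25 held 10 or more. The latter held 1173 *Trh* UMIs of 717407 in all, against 847 of 753047 in the former. A single *Otp* UMI was held by 92 of the 131 selected nuclei. From the selection 36 nuclei were left out for 1 *Caprin2* UMI, 30 for 2 or more, and 27 for 2 or more UMIs of the GABAergic genes. Of those 27, 17 held 10 or more *Trh* UMIs.

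The label given to these nuclei, non-magnocellular paraventricular neurons, was checked against marker genes. *Trh* met it, whereas *Crh* and *Mc4r* were nearly absent, so the nuclei are named here by the rule. *Oxt* reached 10 UMIs or more in 3 nuclei, with 967 UMIs in a nucleus of fed library 3, 140 in one of fed library 1 and 89 in one of fed library 4, and the first held 68.7% of all 1407 *Oxt* UMIs. *Avp* reached 10 UMIs in 1 nucleus, of fasted library 2, with 21. All other nuclei held fewer than 10 UMIs of each, and both genes also gave UMIs in oligodendrocyte-like nuclei, which should lack them: *Oxt* was seen in 9.59%, 14.1%, 60.7% and 81.3% of these in fed libraries 1 to 4 and in 4.45% and 5.06% in the fasted libraries, and *Avp* in 24.7%, 20.4%, 42.9%, 50%, 8.10% and 8.05%.

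Several defining markers of other cell types had no UMI. Of the ventromedial markers *Sox14* was at 0, of the mammillary and posterior markers *Foxa1* and *Barhl2*, of the pallial markers *Tbr1*, *Neurod2*, *Emx1* and *Slc17a7*, and of the thalamic markers *Shox2* and *Gbx2*. The astrocyte genes *Aqp4*, *Gfap* and *Gjb6*, the microglial genes *Csf1r*, *C1qa* and *Tmem119*, the vascular genes *Cldn5*, *Flt1*, *Vtn* and *Rgs5* and the ependymal gene *Ccdc153* also had no UMI in the 131 nuclei. Other members of these lists did: *Slc1a2* of 5 astrocyte genes with UMIs had 42 UMIs in 32 nuclei and *P2ry12* of 4 microglial genes 21 in 21. *Vcan* of 4 oligodendrocyte precursor genes had 17 in 14, the vascular gene *Pecam1* 12 in 5 and *Col23a1* of the tanycyte and ependymal list 13 in 8. All 9 oligodendrocyte markers had UMIs, with *Mbp* the most abundant at 51. Their summed level was 37.4, 83.3, 92.8 and 99.5 CPM (UMIs of a gene per 1000000 UMIs of the summed nuclei) in fed libraries 1 to 4 and 190 and 146 in the fasted libraries, against 126, 95.9, 139, 128, 223 and 264 CPM in the other glutamatergic nuclei. Of the neuronal markers, *Fezf1* had 45 UMIs in 34 nuclei, *Lhx5* 46 in 37 and *Npy* 73 in 24. The summed level of a list was above that of the other glutamatergic nuclei for oligodendrocyte precursors in fasted library 2 (136 against 43.3 CPM), for microglia in fed library 1 (112 against 43.6 CPM) and for arcuate genes in fed library 2 (181 against 129 CPM), among others, and their part in the results was not tested. The oligodendrocyte level was higher in both fasted libraries than in any fed library in the selected nuclei, and its part in the fasting results was not tested.

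*Trh* transcripts were present in 79 of the 131 nuclei and concentrated in few of them. In 44 nuclei *Trh* reached 10 UMIs or more, in 35 it had 1 to 9 and in 52 it had none. The 44 nuclei held 93.3% of the 1728 *Trh* UMIs. Of these 44, 21 came from each of fed libraries 3 and 4, 1 each from fed libraries 1 and 2, and none from the fasted libraries. Nuclei with and without *Trh* had similar depth, with medians of 11304 and 10903.5 UMIs.

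The level of *Trh* followed the split between libraries. Summed over the selected nuclei it was 346, 333, 1285 and 1393 CPM in fed libraries 1 to 4 and 94.96 and 209 CPM in the fasted libraries. In the other glutamatergic nuclei the same libraries gave 26.9, 20.1, 166, 175, 11.6 and 7.43 CPM. Fed libraries 3 and 4 were highest and the fasted libraries lowest in both sets. The ratio of selected to other glutamatergic nuclei was 12.9, 16.6, 7.76, 7.94, 8.17 and 28.1 in the same order, so *Trh* was higher in the selected nuclei in 6 of 6 libraries.

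The share of nuclei with a *Trh* UMI overlapped between the feeding states. It was 76.9% (95% exact interval 46.2 to 94.96), 36.4% (10.9 to 69.2), 55.3% (40.1 to 69.8) and 66.7% (51.6 to 79.6) in fed libraries 1 to 4, and 50% (6.76 to 93.2) and 62.5% (24.5 to 91.5) in the fasted libraries. The means were 58.8% ± 17.4 (SD, n = 4) and 56.3% (n = 2), and a 2-sided exact permutation test over pools gave p = 1 or 0.333 by pairing, where 0.333 is the smallest p possible. With each nucleus thinned to 2000 UMIs the means were 40.8% and 31.3%. At 5 UMIs or more the share was 15.4%, 18.2%, 48.9% and 50% in fed libraries 1 to 4 and 0% and 12.5% in the fasted libraries, so the 42.9% (51 of 119) of all fed nuclei rested on fed libraries 3 and 4, and the fasted nuclei gave 8.33% (1 of 12). Free RNA may contribute to such shares, which was not tested. Of the oligodendrocyte-like nuclei 1.96% (27 of 1376) had a *Trh* UMI, and none had 5. By library that was 2.05%, 2.11%, 14.3% and 15.6% (fed) and 1.62% and 0.749% (fasted), at median depths of 1758, 1724.5, 6444.5, 5389, 2520.5 and 2579 UMIs, which are below the depths of the selected nuclei.

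**Figure D2:**
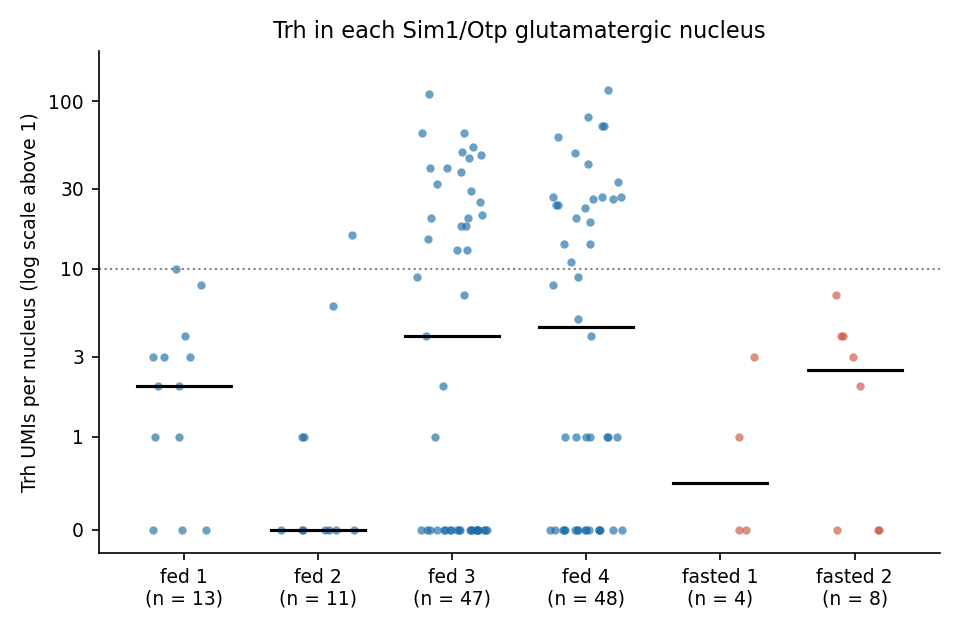
*Trh* UMIs in each selected nucleus (points, log scale above 1) by library, with the median as a black line and a dotted line at 10 UMIs. In fed libraries 3 and 4 21 nuclei each lie at or above 10, up to 111 and 117, whereas fasted libraries 1 and 2 reach 3 and 7.

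*Crh* was found in 8 nuclei, 3 of fed library 3 and 5 of fed library 4, with 24 UMIs in all and at most 7 in a nucleus. Of these 8 nuclei, 4 also held 10 or more *Trh* UMIs and 4 held no *Trh*. None of the 12 fasted nuclei had a *Crh* UMI, which allows a share of up to 60.2% in fasted library 1 and 36.9% in fasted library 2 (95% exact interval), where the limit is set by the 4 and 8 nuclei of 1 pool and covers counting error only, so no difference could be shown. In the comparison sets *Crh* was seen in 1 of 1376 oligodendrocyte-like and 103 of 11179 (0.921%) other glutamatergic nuclei. *Mc4r* was found as 1 UMI in 1 of the 131 nuclei (0.763%), of fed library 2, against 4.43% (495) of the other glutamatergic and none of the oligodendrocyte-like nuclei. Too few nuclei held *Crh* or *Mc4r* for a test of these subsets.

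Other peptide genes divided the nuclei further. *Tac1*, the substance P precursor, reached 10 UMIs in 12 nuclei, *Penk* (enkephalins) in 8, *Sst* (somatostatin) in 7 and *Cartpt* (CART) in 5, with at most 42, 44, 66 and 63 UMIs in a nucleus. Growth hormone-releasing hormone (*Ghrh*) did so in 2, galanin (*Gal*) in 1 and urocortin 3 (*Ucn3*) in 1. All of the nuclei with 10 or more UMIs of these 7 genes came from fed libraries 3 and 4. Of the 12 *Tac1* nuclei, 8 also held 10 or more *Trh* UMIs. Over 22 peptide genes, with *Oxt* and *Avp* left out, 72 nuclei held none at this level, 41 held 1 and 18 held 2 or more, and 17 of these 18 combined *Trh* with another. *Vip*, *Nmu* and *Npff* had no UMI in any of the 131 nuclei.

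**Figure D3:**
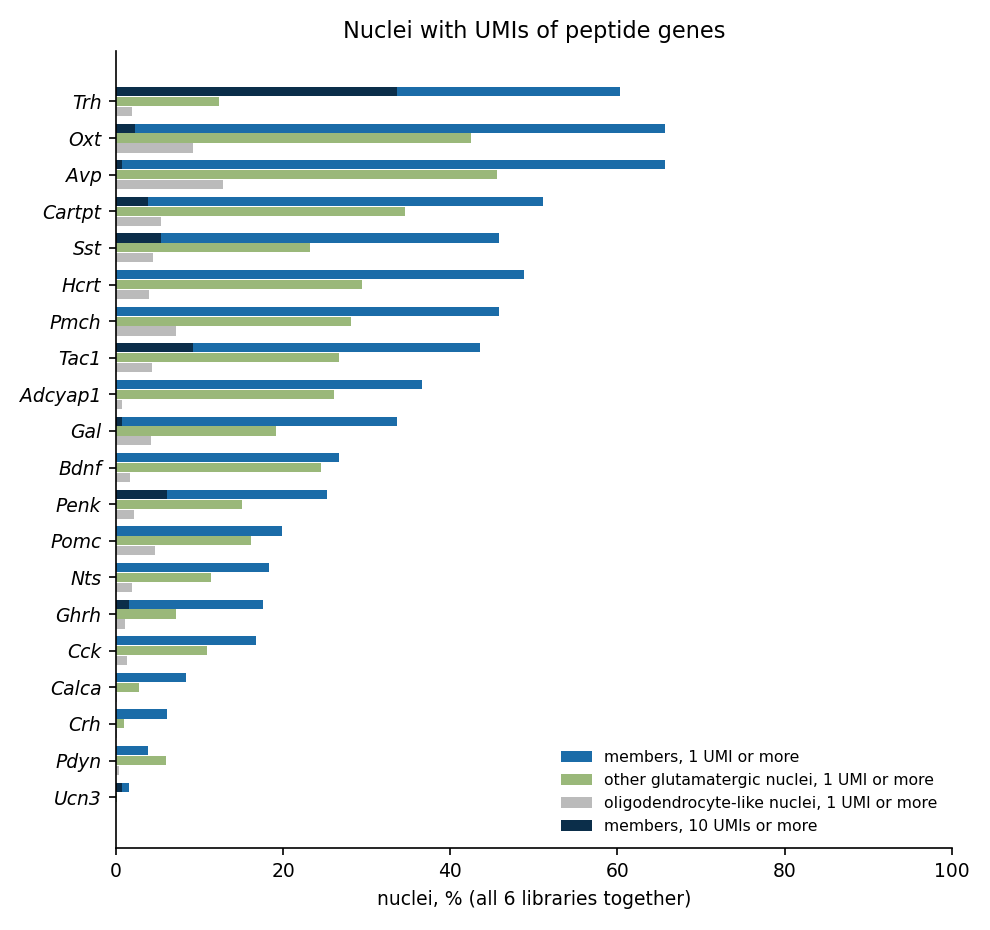
Share of nuclei, in percent over all 6 libraries together, with 1 or more UMIs of each peptide gene in the selected nuclei (blue; the dark part is 10 or more UMIs), the other glutamatergic nuclei (green) and the oligodendrocyte-like nuclei (grey). *Trh* has the longest dark bar, 44 of 131 nuclei, whereas *Oxt* and *Avp* are seen in 86 nuclei each but reach 10 UMIs in 3 and 1.

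To ask which other genes differ in these nuclei, they were compared with the 11179 other glutamatergic nuclei of the same libraries. *Trh* rose most clearly (log2FC 3.27, SE 0.14, edgeR adjusted p = 4.81e-112), and the developmental transcription factors *Ebf1*, *Onecut2*, *Zic1* and *Zic2* also rose. The summed levels of the GABA-A receptor subunit *Gabra5* and of the lateral hypothalamic peptide genes *Hcrt* and *Pmch* fell. Of 20045 genes tested outside the rule, 649 passed an adjusted p of 0.05 (3.24%), 191 higher (0.953%) and 458 lower (2.28%). With another scaling (RLE size factors) 551 passed, and the split moved from 191 higher and 458 lower to 232 higher and 319 lower. The median log2FC of all genes was -0.08, and 77 of the 649 were unnamed, ribosomal or mitochondrial genes. DESeq2 called 144.

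The lineage list, mainly transcription factors, was the group with most rises. Of its 31 tested genes 11 rose and 4 fell, beside 0.953% and 2.28% of all genes, with a median log2FC of 0.01 against -0.08 for all genes. *Ebf1*, a helix-loop-helix factor of neuronal differentiation (GRCm38, chr11:44617317-45008091, plus strand), was at 355, 486, 165 and 265 CPM in fed libraries 1 to 4 and at 214 and 355 CPM in the fasted libraries. The other glutamatergic nuclei held 31.9 to 45.1 CPM, so the groups did not overlap (log2FC 2.65, SE 0.13, edgeR adjusted p = 1.40e-83). *Ebf1* was not evenly spread, with UMIs in 45 of the 131 nuclei.

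*Onecut2*, a cut-homeodomain factor, was at 150, 181, 101 and 71.3 CPM in the fed and 190 and 94.1 CPM in the fasted libraries, against 21.0 to 29.8 CPM (log2FC 2.05, SE 0.18, edgeR adjusted p = 1.67e-27). The zinc-finger factor *Zic1* (chr9:91358058-91365810, minus strand) was at 9.35, 83.3, 51.2 and 54.7 CPM in the fed and 166 and 41.8 CPM in the fasted libraries, against 4.12 to 9.86 CPM (log2FC 2.76, SE 0.31, edgeR adjusted p = 2.05e-16). Both were higher within each of the 6 libraries, although the lowest *Zic1* value of the selected nuclei lay inside the range of the others. *Zic1* lies beside and overlaps *Zic4* on the opposite strand, so its reads are uncertain. *Zic2* (chr14:122475435-122479852, plus strand), seen in 25 nuclei, rose by a similar amount (log2FC 2.94, SE 0.42, edgeR adjusted p = 4.33e-10), and *Npas3*, a factor of neurogenesis, by less (log2FC 1.16, SE 0.12, edgeR adjusted p = 9.71e-21). *Sim2*, *Ebf2*, *Onecut3*, *Pou3f2*, *Uncx*, *Dach1* and *Meis1* made up the other rises of the list, and *Foxp2*, *Tcf4* and *Tcf7l2* were among its falls. Under a stricter rule (3 or more *Sim1* and 2 or more *Otp* UMIs) *Ebf1* no longer passed (log2FC 1.03, edgeR adjusted p = 0.371), nor did *Npas3*, and *Zic2* did not pass after thinning.

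Several of the largest fold changes rested on few nuclei. *Ucn3* (log2FC 4.94, SE 0.57, edgeR adjusted p = 3.86e-15) had UMIs in 2 nuclei, and *Tmprss11a* (log2FC 3.55) in a single one. *Gsc* (log2FC 4.88) was seen in 5, *Neurog2* (3.25) in 6, and *Erfl* (3.68) and *C1ql4* (3.43) in 9 each. *Mab21l2* (3.12), which overlaps *Lrba* on the opposite strand, was seen in 13. Under the stricter rule each of these calls but that of *Gsc* was lost, and *Gsc* did not pass by DESeq2. Of the 191 genes that rose, 164 had UMIs in 10 or more of the selected nuclei and 27 in fewer, and 10 drew over 50% of their UMIs from 1 nucleus.

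Among the peptide genes, 7 of 23 rose and 3 fell, beside 0.953% and 2.28% of all genes (median log2FC 0.01 against -0.08). The rises were *Trh*, *Crh*, *Penk*, *Sst*, *Ghrh*, *Ucn3* and *Oxt*, and the falls *Avp*, *Cck* and *Grp*. *Crh* rose by 2.23 (SE 0.49, edgeR adjusted p = 4.04e-04), but not by DESeq2 (adjusted p = 1), and it was above the other glutamatergic nuclei only in fed libraries 3 and 4. Its call was also lost without fed library 4 and under the stricter rule. The *Ghrh* rise (log2FC 1.14) turned to -0.044 without fed library 4, and it was lost after thinning and by DESeq2 (adjusted p = 1). The *Oxt* rise (log2FC 0.50) turned to -0.08 without fed library 3, which holds the nucleus with 967 UMIs, and its call was also lost without fed library 1 or 2 or fasted library 2, without doublets and by DESeq2. Under the stricter rule *Oxt* passed as a fall (log2FC -2.58, edgeR adjusted p = 1.27e-04). *Avp* fell (log2FC -1.29, SE 0.17, edgeR adjusted p = 1.67e-11) in the 4 fed libraries but was higher in both fasted libraries. Leaving out 1 library moved it between -1.69 and -0.59, and the call was lost without fed library 3, after thinning and by DESeq2 (log2FC -0.18, adjusted p = 1). Because *Caprin2* was used to leave out magnocellular neurons, the *Oxt* and *Avp* values are not independent of the rule.

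Of 17 genes that process peptides, 1 rose and 1 fell, beside 0.953% higher and 2.28% lower of all genes (median log2FC -0.05). At an unadjusted p of 0.05 edgeR counted 1 higher and 5 lower, where 1950 of all 20045 genes were at that level, 486 of them higher. The convertase *Pcsk2*, which cuts hormone precursors at basic pairs, was higher in 6 of 6 libraries, at 1392, 1153, 1223, 1139, 1567 and 1474 CPM against 815 to 872 CPM (log2FC 0.51, SE 0.11, edgeR adjusted p = 1.23e-04), but the call was lost without fasted library 2, after thinning and under the stricter rule, where the log2FC was 0.0016. *Pam*, which amidates peptides, was lower in 6 of 6 libraries (log2FC -0.64, SE 0.12, edgeR adjusted p = 1.60e-05), a call lost under the stricter rule and by DESeq2. The convertase *Pcsk1* did not pass (log2FC -0.76, edgeR adjusted p = 0.0512), nor did *Cadps* (log2FC -0.27, edgeR adjusted p = 0.240).

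Of the thyroid-axis genes, which include thyroid hormone receptors and transporters, none of 19 rose and 1 fell, beside 0.953% higher and 2.28% lower of all genes and an all-gene median of -0.08. The fall was the cannabinoid receptor *Cnr1* (log2FC -0.64, edgeR adjusted p = 0.00583), with a list median of -0.17. The TRH-degrading enzyme gene *Trhde* was at log2FC 0.37 (edgeR adjusted p = 0.244). In the list for CRH and glucocorticoids 1 of 20 rose and 3 fell (median -0.17). The mineralocorticoid receptor *Nr3c2* rose (log2FC 0.43, edgeR adjusted p = 0.0284), and the glucocorticoid receptor *Nr3c1* (log2FC -0.71, edgeR adjusted p = 0.00803) and its targets *Fkbp5* (-1.05) and *Mt1* (-0.65) fell. *Cnr1* and the 4 calls of that list were each lost without fed library 3, under the stricter rule, after thinning and by DESeq2.

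In the melanocortin pathway 1 of 21 genes rose, the receptor accessory protein *Mrap2* (log2FC 0.60, edgeR adjusted p = 0.0388), and the list median was -0.11. That call was lost without each of the 4 fed libraries in turn, without the count filter, with the stricter rule, after thinning and by DESeq2 (adjusted p = 1). *Mc4r*, tested apart, was lower with its 1 UMI (log2FC -3.74, SE 1.04, edgeR adjusted p = 0.0135; DESeq2 adjusted p = 1). Leaving out 1 library gave -9.84 to -2.83, and the call was lost without fed library 3 or 4, under the stricter rule and after thinning. Of 37 receptors of feeding signals, 4 rose and 8 fell, beside 0.953% higher and 2.28% lower of all genes (median log2FC -0.64, or -0.45 with genes at 0 set to their bound). The calcitonin receptor *Calcr* rose (log2FC 1.57, SE 0.25, edgeR adjusted p = 1.03e-07), at 18.7 to 57.6 CPM against 9.91 to 15.4 CPM without overlap, but not after thinning or by DESeq2 (adjusted p = 0.213). The other rises were *Cckar*, *Tacr1* and *Oprm1*. The neuropeptide Y receptor *Npy1r* fell to 4 UMIs in 4 nuclei (log2FC -3.12, SE 0.52, edgeR adjusted p = 3.14e-07), and *Hcrtr2*, *Lepr*, *Cnr1*, *Oprk1*, *Htr1b* and *Prlr* were among the other falls. The *Npy1r* and *Hcrtr2* calls were lost under the stricter rule, after thinning and by DESeq2, and that of *Hcrtr2* also without fed library 3. *Brs3*, the bombesin-like receptor of feeding circuits, had no UMI, and *Glp1r* had UMIs in 1 nucleus.

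Of 37 glutamate and GABA receptor genes, 5 were higher and 9 lower, beside 0.953% and 2.28% of all genes (median log2FC -0.13). *Gabra5*, the alpha-5 subunit of the GABA-A receptor, was at 18.7, 27.8, 30.4 and 34.8 CPM in the fed and 23.7 and 20.9 CPM in the fasted libraries. The other glutamatergic nuclei held 77.4 to 137 CPM, and the groups did not overlap (log2FC -1.97, SE 0.20, edgeR adjusted p = 1.10e-20). The kainate receptor *Grik2* (log2FC -0.65) and the metabotropic receptor *Grm7* (log2FC -0.68) also fell, whereas the delta receptor *Grid1* rose (log2FC 0.72, edgeR adjusted p = 8.31e-09) and *Grin3a*, *Gabrg3* and *Grik1* were among the other rises. The *Grid1* call was lost under the stricter rule and after thinning, and that of *Grik2* by DESeq2. Immediate early genes had 1 of 27 higher (*Klf4*, log2FC 2.16) and 3 lower (*Nr4a2* -3.04, *Junb* -1.62, *1700016P03Rik* -0.96), with a median of -0.26 (-0.20 at bound). Each of these 4 calls was lost without fed library 4, under the stricter rule and by DESeq2.

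Markers of ventromedial, mammillary, pallial, thalamic and lateral hypothalamic neurons were lower or did not pass. Of all genes 2.28% fell. Markers with few or no UMIs in the selected nuclei entered the test only through the 11179 other glutamatergic nuclei, where they are higher. Their falls are therefore a description and no test of what the selected nuclei are. In the ventromedial list 3 of 4 fell (*Sox14*, *Nr5a1* and *Nkx2-1*), in the mammillary and posterior list 4 of 11 (*Foxa1*, *Lmx1a* and *Lhx1* among them), in the pallial list 1 of 4 and in the thalamic list 1 of 2 (*Tcf7l2*). Their list medians were -2.50, -2.33, -1.46 and -2.83, or -2.43, -1.13, -1.12 and -2.83 with genes at 0 set to their bound. *Hcrt* (orexin) fell by 2.48 on the log2 scale (edgeR adjusted p = 2.47e-33) and *Pmch* by 1.52 (edgeR adjusted p = 7.26e-17), 2 of the 3 lateral hypothalamic genes, and both were lower in 6 of 6 libraries. Neither exceeded 4 UMIs in a selected nucleus, and *Pmch* overlaps *Parpbp* on the opposite strand. Other glutamatergic nuclei held up to 1776 *Hcrt* and 1358 *Pmch* UMIs. The share of nuclei with a *Hcrt* UMI was higher in the selected nuclei in fed libraries 2 to 4 (70.2% against 53.1% in fed library 3) and lower in the rest. For *Pmch* it was higher in fed libraries 1 to 4 (59.6% against 48.1% in fed library 3) and lower in both fasted libraries. Of 7 arcuate genes *Ghrh* rose and *Pomc* fell, and of the magnocellular genes *Oxt* rose and *Avp* fell, as given above. Of the calls named here, those of *Sox14*, *Nr5a1*, *Nkx2-1*, *Foxa1*, *Lmx1a*, *Lhx1*, *Tcf7l2* and *Pomc* were lost after thinning. All of these but *Pomc* were also lost under the stricter rule, and all but *Sox14* and *Tcf7l2* by DESeq2. Without fed library 4 the calls of *Nr5a1*, *Foxa1*, *Lmx1a* and *Lhx1* were lost, and without fed library 3 those of *Nr5a1*, *Foxa1* and *Lhx1*. None of the glial and vascular markers passed, in either direction: 0 of 9 in oligodendrocytes, 0 of 8 in astrocytes, 0 of 4 in oligodendrocyte precursors, 0 of 6 in microglia, 0 of 4 in vascular cells and 0 of 4 in tanycytes and ependyma.

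Some genes of other glutamatergic neurons had no UMI in the 131 nuclei, and only a bound on the fold change can be given, at 3 counts over the selected nuclei. *Sox14* was at least 7.85-fold lower, *Ttc6* at least 5.24-fold, *Sox1* at least 3.85-fold, the aromatase gene *Cyp19a1* at least 2.91-fold, *Tmem215* and *Rgs14* at least 2.72-fold lower each, *Foxa1* at least 2.35-fold and *Krt18* at least 2.31-fold. All 8 calls were lost under the stricter rule and after thinning, and all but that of *Sox14* by DESeq2. *Sox1ot*, a transcript that overlaps *Sox1* on the same strand, kept 3 UMIs (log2FC -4.39), and reads of the pair may be split. *Steap3* kept 1 UMI (log2FC -4.38, or -9.96 to -3.46 with 1 library left out), and its call was lost without fed library 4, under the stricter rule, after thinning and by DESeq2. Of 59 named genes that passed in this comparison, 8 passed under every alternative that could be fitted for them (*Trh*, *Onecut2*, *Zic1*, *Sox1ot*, *Gabra5*, *Grm7*, *Hcrt* and *Pmch*) and 18 passed by DESeq2.

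**Figure D4:**
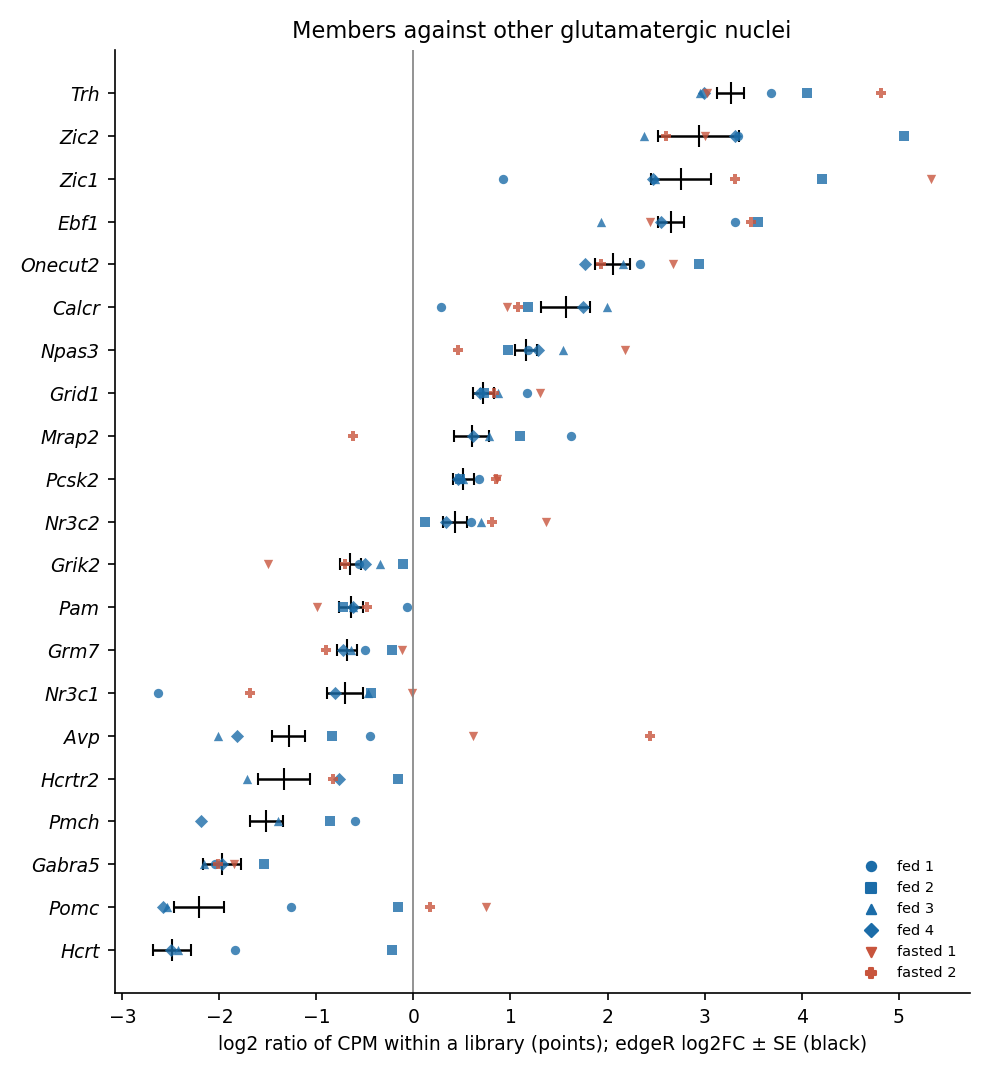
Selected nuclei against the other glutamatergic nuclei: log2 ratio of CPM within each library (points; circle, square, triangle and diamond are fed libraries 1 to 4, red marks are fasted) and the edgeR log2FC ± SE (black). A library with no UMI on one side has no point; *Trh*, *Zic1*, *Ebf1* and *Onecut2* lie above 0 and *Gabra5* below 0 in all 6 libraries.

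The nearest nuclei in these data are the 66 that met the rule except that they held *Caprin2* (9, 4, 27 and 22 in fed libraries 1 to 4, and 3 and 1 in the fasted libraries). Against them the selected nuclei had less *Avp*, *Foxp2*, *Fign* and *Stxbp6* and more *Nrxn3*, *Penk* and *Ebf1*, whereas *Trh* did not pass. Of 8301 genes tested, 62 passed (0.747%), 16 higher (0.193%) and 46 lower (0.554%), and DESeq2 called 5. *Trh* was at log2FC 0.29 (SE 0.20, edgeR adjusted p = 1), with 133, 267, 1208, 1118, 0 and 0 CPM in the *Caprin2* nuclei.

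*Foxp2*, a forkhead transcription factor, was at 84.1, 0, 54.4 and 26.5 CPM in the fed and 0 and 52.3 CPM in the fasted libraries of the selected nuclei. In the *Caprin2* nuclei it was at 457, 213, 260 and 216 CPM (fed) and 817 and 0 CPM (fasted), where fasted library 2 had a single nucleus. It was lower in 5 of 6 libraries (log2FC -2.86, SE 0.27, edgeR adjusted p = 4.06e-22). *Fign*, which encodes a microtubule-severing enzyme, was at 74.8, 41.7, 44.8, 19.9, 47.5 and 73.2 CPM against 428, 240, 135, 177, 245 and 0 CPM, again lower in 5 of 6 libraries (log2FC -2.26, SE 0.29, edgeR adjusted p = 5.93e-12). With *Stxbp6*, a SNARE-binding protein gene (log2FC -2.32, edgeR adjusted p = 1.14e-11), these were the 3 of the 23 named calls that passed under every alternative that could be fitted for them, DESeq2 included.

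*Caprin2* was used to part these sets, so the magnocellular peptides are given as a description. *Avp* was at 74.8, 55.5, 134, 118, 47.5 and 230 CPM in the selected nuclei and at 2597, 240, 9924, 8819, 163 and 0 CPM in the *Caprin2* nuclei (log2FC -4.58, SE 0.29). *Oxt* had a log2FC of -2.98 but was lower in 3 libraries and higher in the other 3. Leaving out 1 library gave -4.44 to -1.11 for *Oxt*, and its call was lost without fed library 4 or fasted library 1. Neither *Oxt* nor *Avp* passed by DESeq2. The convertase *Pcsk1* was lower (log2FC -1.87, SE 0.35, edgeR adjusted p = 4.41e-05), as were the calcium release channel *Ryr1* (-2.42), *Zeb2* (-2.30), *Plekhg1* (-2.17), *Arhgap33* (-2.004) and *Pmch* (-2.89). None of these 6 falls passed by DESeq2. Without fed library 3 *Pmch* was at -0.39 and no longer passed, and without fed library 4 *Pcsk1* was at -1.09 and no longer passed. *Arhgap33* lost its call without fed library 1, 2 or 3 and *Ryr1* without fed library 1.

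*Nrxn3*, a presynaptic adhesion gene, was higher in 6 of 6 libraries, at 1159, 1500, 922, 1063, 878 and 1766 CPM against 207, 1253, 499, 480, 204 and 384 CPM (log2FC 1.35, SE 0.22, edgeR adjusted p = 4.96e-07). The adhesion and axon gene *Tenm3* (log2FC 1.11) and the zinc-finger gene *Zfp521* (1.49) were also higher in 6 of 6 libraries. *Ebf2* (2.002), *Penk* (1.501), the mu opioid receptor gene *Oprm1* (1.37), *Ebf1* (1.01), *Pde7b* (1.00), *Dpp10* (0.92) and *Car10* (0.92) passed as well. *Oprm1* overlaps *Ipcef1* on the opposite strand. None of these rises passed by DESeq2. Leaving out 1 library ended each call at least once: *Zfp521* lost it in 5 of 6 cases (all but fasted library 2), *Dpp10* in 5 (all but fed library 2), and *Oprm1* and *Car10* in 4 (fed libraries 1, 3 and 4 and fasted library 1). *Ebf2* lost it in 4 (fed libraries 1 and 2 and both fasted ones), *Ebf1* in 3 (fed libraries 1 to 3), *Pde7b* in 3 (fed libraries 1 and 4 and fasted library 1) and *Penk* in 3 (fed libraries 1 and 3 and fasted library 1). *Tenm3* lost it without fed library 1 or fasted library 1, and *Nrxn3* without fasted library 1.

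By list, and beside 0.193% higher and 0.554% lower of all genes, the lineage list had 3 of 21 higher (*Ebf1*, *Ebf2* and *Npas3*) and 3 lower (*Foxp2*, *Fign* and *Pou3f2*), with a median log2FC of 0.19 against 0.007 for all genes. The *Npas3* call was lost without fed library 1, 3 or 4 or fasted library 1, after thinning and by DESeq2, and that of *Pou3f2* without each fed library, without fasted library 1, without the count filter and by DESeq2. The peptide genes had 1 of 14 higher and 2 lower (median -0.16) and the processing genes 0 of 17 higher and 1 lower. Feeding receptors had 1 of 13 higher and none lower, and glutamate and GABA receptors 1 of 31 higher (*Grin1*, log2FC 0.76, edgeR adjusted p = 0.0423). No gene passed among 11 thyroid-axis genes, 7 of the CRH and glucocorticoid list, 19 melanocortin genes or 6 immediate early genes.

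**Figure D5:**
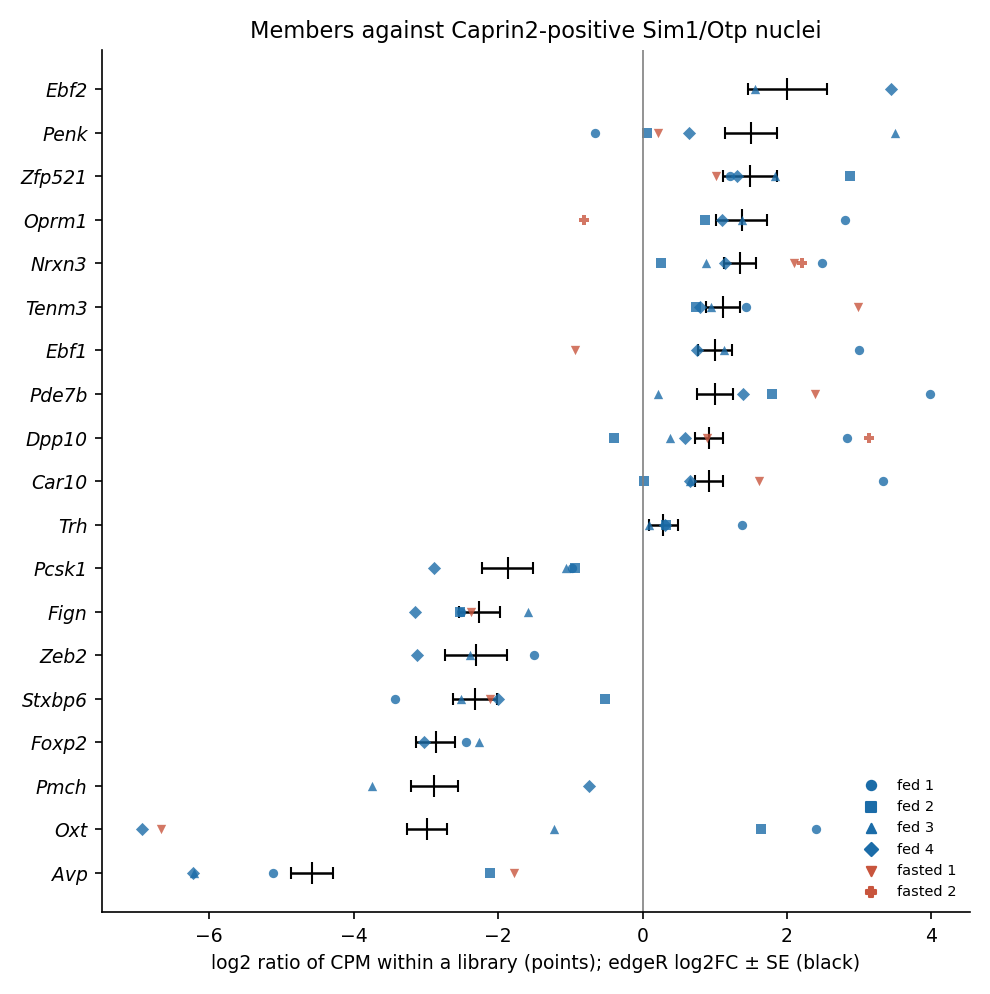
Selected nuclei against the 66 *Caprin2*-positive nuclei: log2 ratio of CPM within each library (points; circle, square, triangle and diamond are fed libraries 1 to 4, red marks are fasted) and the edgeR log2FC ± SE (black). A library with no UMI on one side has no point; *Foxp2* and *Fign* have every drawn point below 0, and the *Oxt* points lie on both sides of 0.

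Within the selected nuclei, the 79 with a *Trh* UMI were compared with the 52 without. Of 6677 genes tested, 4 passed (0.0599%), 3 higher (0.0449%) and 1 lower (0.015%), and DESeq2 called none. At an unadjusted p of 0.05 edgeR counted 241. *Gpc5*, a gene of the glypican cell-surface proteoglycans (GRCm38, chr14:115092215-116525179, plus strand), was at 2725, 1568, 1281 and 972 CPM in the fed and 50.4 and 4441 CPM in the fasted *Trh*-positive nuclei. The *Trh*-negative nuclei held 352, 612, 644, 554, 135 and 222 CPM, so it was higher in 5 of 6 libraries (log2FC 1.69, SE 0.27, edgeR adjusted p = 0.00216, DESeq2 adjusted p = 0.0893). By nucleus the sets were closer. A *Gpc5* UMI was held by 35 of 44 nuclei with 10 or more *Trh* UMIs, 28 of 35 with 1 to 9 and 39 of 52 with none. In the same order, 19, 7 and 13 nuclei held 10 or more *Gpc5* UMIs. The nucleus with most, 148, was of fasted library 2, where 2 selected nuclei reached 10.

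*Slc24a3*, a potassium-dependent sodium/calcium exchanger gene (chr2:145167754-145642166, plus strand), was higher in 6 of 6 libraries, at 466, 566, 232, 314, 202 and 743 CPM against 78.3, 183, 152, 143, 180 and 222 CPM (log2FC 1.26, SE 0.25, edgeR adjusted p = 0.0206). Both genes are long and overlap unnamed transcripts, which leaves their reads uncertain. The 2 calls were lost without fed library 1 (edgeR adjusted p = 0.0625 for *Gpc5* and 0.131 for *Slc24a3*) and without fasted library 2 (0.0776 and 0.316). That of *Slc24a3* was also lost after thinning. The other 2 calls were the unnamed transcripts *Gm28526* (log2FC 3.47, edgeR adjusted p = 2.24e-05), higher in 4 of 6 libraries, and *A330008L17Rik* (-1.67, edgeR adjusted p = 0.0164), lower in 4 of 6. *Gm28526* did not pass without fed library 3 (edgeR adjusted p = 0.0553), and *A330008L17Rik* did not without fed library 1 (0.294) or 3 (0.584). Both overlap another transcript and are uncertain. No gene of the 22 lists passed: *Tac1* was at log2FC 1.10 (edgeR adjusted p = 0.377), *Foxp2* at -2.24 (0.196), *Oprm1* at 1.16 (0.261) and *Npas3* at -0.83 (0.265).

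The design asks what a fast of 16 h changes in these neurons, and 12 fasted nuclei of 1 pool bear on it. None of 8103 genes tested passed (0%), and DESeq2 called none, with 109 at an unadjusted p of 0.05. By edgeR, 42 genes (0.518%) were higher and 436 (5.38%) lower in the fasted nuclei at an unadjusted p of 0.05. This split is tied to the count filter and is no result about fasting. Without fed library 3 only 2702 genes could be tested, and without fed library 4 only 2705. Most tested genes thus entered through these fed libraries, where a fall is more readily seen than a rise. The lowest adjusted p was that of *Oxt* (log2FC -6.06, edgeR adjusted p = 0.0670), at 1327, 83.3, 1663 and 361 CPM in the fed and 23.7 and 10.5 CPM in the fasted libraries. In fed libraries 1 and 3 single nuclei carried the value, with 140 of 142 and 967 of 1039 *Oxt* UMIs in 1 nucleus each. In fed libraries 2 and 4 *Oxt* was seen in 5 of 11 and 41 of 48 nuclei, with at most 2 and 89 UMIs in a nucleus. The gene was also seen in most oligodendrocyte-like nuclei of fed libraries 3 and 4, as given above.

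*Trh* was lower in both fasted libraries than in any fed library, as given above, but did not pass (log2FC -2.31, SE 0.80, edgeR adjusted p = 0.586). *Sst* was seen in 4.11%, 8.45%, 25% and 25% of the oligodendrocyte-like nuclei of fed libraries 1 to 4 and in 3.24% and 2.25% of the fasted ones. In the selected nuclei it was at 9.35, 83.3, 187 and 275 CPM in the fed libraries and had no UMI in the fasted nuclei, at least 9.47-fold lower than in the fed nuclei pooled (edgeR adjusted p = 0.541). Bounds of this kind set the fasted nuclei against all fed nuclei together, of which fed libraries 3 and 4 gave most, and none is given against fed libraries 1 and 2. *Tac1* was at 93.5, 55.5, 306 and 247 CPM against 23.7 and 10.5 CPM (log2FC -3.67, edgeR adjusted p = 0.541). In each of these 3 genes the fasted libraries lay closer to fed libraries 1 and 2 than to 3 and 4.

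The neuroendocrine vesicle gene *Resp18* behaved alike, at 271, 500, 1570 and 1920 CPM against 261 and 62.7 CPM (log2FC -3.13, edgeR adjusted p = 0.541). *Mrfap1* (at least 6.99-fold lower), *Cct8* (at least 4.05-fold) and *Scand1* (at least 3.36-fold) had no UMI in the fasted nuclei, and *Bsg* (log2FC -3.83), *Ndufa5* (-4.68) and *Atp6v0c* (-3.67) were low, each with an edgeR adjusted p of 0.541. *Gramd4* was the one gene of these with a higher value, at 119 and 105 CPM against 13.9 to 19.2 CPM (log2FC 2.59, edgeR adjusted p = 0.541). The melanocortin accessory gene *Mrap2* was at 84.1, 55.5, 96.0 and 86.2 CPM in the fed and 0 and 20.9 CPM in the fasted libraries (log2FC -2.53, edgeR adjusted p = 0.656). The thyroid hormone receptor *Thrb* was at 101 to 167 CPM in the fed and 261 and 293 CPM in the fasted libraries (log2FC 1.16, edgeR adjusted p = 0.945).

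The peptide list had a median log2FC of -2.35 (-1.91 with genes at 0 set to their bound), against -0.04 for all genes, and none of its 14 tested genes passed. The list medians carry the limit of the count filter given above. The lateral hypothalamic genes *Hcrt* and *Pmch* also had no UMI in the fasted nuclei (at least 3.36-fold and 2.97-fold lower than in the fed nuclei pooled), and both were at an unadjusted p under 0.05 without passing. They were seen in oligodendrocyte-like nuclei too, *Hcrt* in 6.85%, 6.34%, 42.9% and 15.6% (fed) against 1.21% and 2.25% (fasted) and *Pmch* in 11.6%, 16.9%, 17.9% and 18.8% against 5.06% and 4.12%. Whether free RNA gave these UMIs, and its part in the fasting values, was not tested. The processing list was at -0.81 (-0.68 at bound), the thyroid-axis and melanocortin lists at 0.09 each and the lineage list at 0.32. The outcome depended on which fed libraries were used. Against fed libraries 1 and 2 none of 1774 genes passed, and against fed libraries 3 and 4 682 of 8099 passed, 97 higher and 585 lower. Fed libraries 1 and 2 held 13 and 11 selected nuclei, and fed libraries 3 and 4 held 47 and 48 at greater depth. The counts of genes that passed are therefore not comparable between these fits. Each library was treated as a sample in these fits, so their p-values measure the spread between tubes of 1 pool or more, not between mice. Whether a fed pool or the fast sets these differences cannot be told apart.

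In the 7 *Trh*-positive fasted nuclei against the 72 fed ones, none of 6369 genes passed (0%). At an unadjusted p of 0.05, 40 were higher (0.628%) and 357 lower (5.61%), and DESeq2 called none, with 54 at that level. The limit of the count filter holds here too, as 1648 genes could be tested without fed library 3 and 1644 without fed library 4. *Stmn1* (at least 11.9-fold lower), *Tac1* (at least 7.84-fold), *Sst* (at least 5.99-fold) and *Penk* (at least 3.44-fold) had no UMI in the fasted nuclei, each with an edgeR adjusted p of 0.310.

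To ask whether fasting acted on these nuclei otherwise than on the other glutamatergic nuclei, the difference between the 2 effects was tested. Of 20045 genes 1 passed (0.00499%), *Avp* (difference in log2FC 3.68, SE 0.40, edgeR adjusted p = 4.09e-04), and none was lower (0%). *Avp* was at 74.8, 55.5, 134 and 118 CPM in the fed and 47.5 and 230 CPM in the fasted selected nuclei, and at 102, 99.4, 545, 415, 31.0 and 42.5 CPM in the other glutamatergic nuclei. Of the fasted *Avp* UMIs, 21 lay in 1 nucleus of fasted library 2, and without that library the difference was 1.81 (edgeR adjusted p = 1). *Trh* had a difference of 0.74 (SE 0.33, edgeR adjusted p = 1), where both sets had lower *Trh* in the fasted libraries. The next genes, the axon guidance gene *Ntng1* (-1.81, edgeR adjusted p = 0.111) and the serotonin receptor *Htr2c* (-1.68, edgeR adjusted p = 0.308), did not pass.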

How the data were processed

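Nuclei were sorted with DRAQ5 and profiled with 10x 3' v3 chemistry. The authors deposited raw UMI counts per gene and barcode for each library; the submitters' processing notes name Cell Ranger 5.0.1 and build mm10. All 6 libraries were used. UMI counts were summed over the selected nuclei of each library and then of each pool, which is the replicate. Because the labels do not name the fed pools, each of the 3 pairings was fitted with edgeR 4.0.16 (quasi-likelihood, TMM, genes with at least 10 counts in 2 library sums). The largest p per gene was kept, and p-values were adjusted by Benjamini-Hochberg over all genes tested. The log2FC and SE of a gene come from the pairing that gave its largest p. P-values refer to the spread between pools, for which edgeR borrows information across genes. With 3 pools this spread is poorly known for any 1 gene, so very small p-values should not be taken at face value. The single fasted pool adds no spread of its own and is assumed to vary like the fed pools. Genes of the rule were never tested. Oligodendrocyte-like nuclei held 2 or more *Mog* and *Mag* UMIs and none of *Slc17a6*, *Slc32a1*, *Gad1* or *Gad2*. Doublets were scored per library with Scrublet in Scanpy 1.11.5. Fits were tested on simulated counts.

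Named genes were *Trh*, *Crh* and *Mc4r*, the 10 largest rises and falls that passed in each comparison (or the lowest p where fewer did), and up to 4 genes of each of 22 lists; a few genes that these rules name are not reported here. Members and lists were chosen with earlier results of these data known. Alternatives were other pairings, DESeq2 1.42.0, RLE factors, no count filter, each library left out, doublets left out, a stricter rule, thinning to 2000 UMIs, libraries as samples and a replicate block.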

Additional observations from a re-analysis of the deposited data

Results flagged for a closer look

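*Mc4r* stood out in fed library 2, where 9.091% of the 11 selected nuclei held a UMI, because 1 nucleus did and none did in the other 3 fed libraries. *Gpc5* was at 2159 CPM in the selected nuclei of fed library 1, far from the other 3 fed libraries at 841 to 1026 CPM. *Oprm1* was at 205.6 CPM in the same library, against 76.3 to 97.2 CPM in the others. Of 37 groups of 4 libraries examined in this way 3 gave a far sample, and chance gives about 1 in 20. The effect of fasting on *Avp* differed between the selected and the other glutamatergic nuclei by 3.68 in log2FC (edgeR adjusted p = 4.09e-04), a value that 1 nucleus of fasted library 2 carries.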

How the results depend on the processing

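For fasting in the selected nuclei, the pairings of the fed libraries 1 with 2, 1 with 3 and 1 with 4 gave 1, 738 and 1002 genes, and of 2 alternatives chosen after seeing the data, fed libraries 1 and 2 alone gave 0 and fed libraries 3 and 4 alone gave 682. Fasting in the *Trh*-positive nuclei gave 486 and 569 with the pairings 1 with 3 and 1 with 4. Against the other glutamatergic nuclei these 2 pairings gave 1092 and 1176, DESeq2 144, the stricter rule 123 and thinning 105. Against the *Caprin2* nuclei DESeq2 gave 5 and thinning 12. *Trh*-positive against *Trh*-negative nuclei gave 14, 33 and 47 by pairing, 0 by DESeq2, 19 without a count filter, 24 without doublets and 2 after thinning. The difference between fasting effects gave 6 (1 with 2), 5 (1 with 4), 0 with the stricter rule or thinning and 6 with libraries as samples.

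Leaving out 1 library gave 0 to 4 genes for fasting (4 without fasted library 2) and 0 to 0 in the *Trh*-positive nuclei. Against the other glutamatergic nuclei it gave 291 to 571 (291 without fed library 3, 300 without fed library 4). Against the *Caprin2* nuclei it gave 15 to 55 (15, 39, 25 and 19 without fed libraries 1 to 4, and 18 without fasted library 1). For the *Trh* split it gave 2 to 20 (20 without fed library 4, 14 and 2 without fasted libraries 1 and 2). For the difference between fasting effects it gave 1 to 8 (8 and 5 without fasted libraries 1 and 2). The fed minus fasted share of selected nuclei was 0.251 to 0.451 percentage points, and those with a *Trh*, *Crh* or *Mc4r* UMI -3.68 to 10.1, 2.13 to 5.60 and 0 to 3.03. The *Trh* share difference turned to -3.47 without fed library 1, -0.0481 without fed library 4 and -3.68 without fasted library 1, and was 26.9 at 5 UMIs or more. The share of selected nuclei differed by 0.754 over glutamatergic nuclei and by 0 with thinning before the rule.

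Under the stricter rule *Ucn3* turned to -6.14, *Erfl* to -5.83, *Tmprss11a* to -6.87, *Oxt* to -2.58, *Trhde* to -0.64, and the fasting differences of *Avp* and *Trh* to -9.93 and -0.43. Leaving out 1 library gave -6.32 to 4.70 for *Tmprss11a* and -0.084 to 1.32 for *Oxt* (lowest without fed library 3), -0.067 to 0.54 for *Trhde* and -0.044 to 1.66 for *Ghrh* (lowest without fed library 4), and -0.49 to 1.41 for the *Trh* difference (lowest without fasted library 2). The cause of these changes was not tested. Of the other values for single genes 1096 kept their direction and side of the threshold, 299 lost the call and 29 gained one.

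With the replicate number as a block 0 genes passed for fasting and 4 in the *Trh*-positive nuclei, all lower. Libraries with the same number shared only that number, since their deviations correlated at -0.136 over 584 genes in the selected and 0.00349 over 16716 genes in the other glutamatergic nuclei. The block was not run for the difference between fasting effects, where the library is already a block. Tests of the 8 *Crh*, 1 *Mc4r* and 4 *Foxb1* nuclei could not be fitted, nor could the stricter rule for the *Caprin2* and *Trh* comparisons. The fasting tests rest on 12 fasted nuclei of 1 pool.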
